A study of Mus musculus with 20 samples.

Results

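The 9 genes examined here make, store, take up, convert and break down dopamine: Th, Ddc, Slc18a2, Slc6a3, Gch1, Pts, Qdpr, Dbh and Maoa. They were chosen by gene symbol from the 37561 genes listed in all of the tables, and all 9 symbols were found. Reads were present for 19040 genes, and 13440 genes passed a filter on level, which asks for a log2 normalized count of about 4 or more (16 normalized reads), as estimated from the rounding of the tables, so that genes near the limit can fall on either side of it. Of the 9 genes, 7 passed this filter, whereas Slc6a3 and Dbh had few reads and fell under it. Th lay near the limit, with 16 or more normalized reads in 6 of 10 control and 5 of 10 knockdown libraries, and Slc18a2, Qdpr and Maoa were above it in all 20.

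RNA-seq was carried out on spherical neural masses (SNM), floating neural precursor aggregates, which were derived from mouse ESD3 (D3) embryonic stem cells of strain 129s2/SvPas and differentiated toward dopaminergic (DA) neurons. Control cells carried a short hairpin RNA (shRNA) against luciferase, and HPRT knockdown cells carried an shRNA against HPRT, the purine salvage enzyme that is missing in Lesch Nyhan Disease. Both lines were infected with a virus (a retrovirus per the labels, a lentiviral vector per the study's methods), selected with puromycin and kept on mouse embryo fibroblast feeders before differentiation. One library per line was sequenced on each of days 0 to 4 and at steps of 2 days up to day 14, which gives 20 libraries and 10 per line, with no replicate within a day, from RNAs that were pooled at each time point per the study's methods. Since 1 line was sampled again and again, the p-values below measure how constant a difference was over days and not how it would vary between independently made lines.

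Dopamine is made from tyrosine. Tyrosine hydroxylase (Th) converts tyrosine to L-DOPA in the rate-limiting step, and aromatic L-amino acid decarboxylase (Ddc) converts L-DOPA to dopamine. Tyrosine hydroxylase needs the cofactor tetrahydrobiopterin, which GTP cyclohydrolase I (Gch1) and 6-pyruvoyl tetrahydropterin synthase (Pts) help to build from GTP and which quinoid dihydropteridine reductase (Qdpr) recycles. Dopamine is loaded into vesicles by the vesicular monoamine transporter VMAT2 (Slc18a2), returned to the cell by the dopamine transporter DAT (Slc6a3), turned into noradrenaline by dopamine beta-hydroxylase (Dbh) and oxidized by monoamine oxidase A (Maoa). A midbrain DA neuron is known by the joint expression of Th, Ddc, Slc18a2 and Slc6a3 without Dbh.

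On the NCBI37/mm9 genome that the study used, with the GENCODE vM1 gene models, the genes lie at chr7:150078657-150117033 on the minus strand (Th), chr11:11714104-11798047 on the minus strand (Ddc), chr19:59335368-59370502 on the plus strand (Slc18a2) and chr13:73674195-73716120 on the plus strand (Slc6a3). The cofactor genes lie at chr14:47773570-47809088 (Gch1), chr9:50329723-50336746 (Pts) and chr5:45825271-45841474 (Qdpr), all on the minus strand. Dbh lies at chr2:27020753-27038720 and Maoa at chrX:16196824-16264944, both on the plus strand. All 9 are protein coding, and no exon of any of them overlaps an exon of another annotated gene, so their reads were not shared with a neighbor or an antisense gene in these models.

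The promoters of Th, Ddc and Slc18a2 are shown because these genes hold 3 successive steps, synthesis, decarboxylation and storage, and because 2 of them carry the same 8-base word near the start site. All 9 genes matched the RefSeq promoter windows of assembly GRCm38.p6, in 10 windows of 300 bases, from 250 bases before to 50 bases after the start of transcription. The stretches below run 5′ to 3′ on the strand of the gene, from 250 bases before to 20 bases after the start, at chr7:142899976-142900245 (Th, minus strand), chr11:11898125-11898394 (Ddc, minus strand) and chr19:59260628-59260897 (Slc18a2, plus strand). Capitals mark the cAMP response element TGACGTCA in Th and Slc18a2 and, in Ddc, the reverse complement of the NBRE word AAAGGTCA, which orphan nuclear receptors such as Nurr1 bind.
Th: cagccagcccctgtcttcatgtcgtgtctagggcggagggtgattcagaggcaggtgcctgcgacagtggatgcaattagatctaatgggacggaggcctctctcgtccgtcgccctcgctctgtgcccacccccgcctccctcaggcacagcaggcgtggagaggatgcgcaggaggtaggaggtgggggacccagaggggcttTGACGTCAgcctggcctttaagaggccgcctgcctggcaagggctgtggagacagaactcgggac
Ddc: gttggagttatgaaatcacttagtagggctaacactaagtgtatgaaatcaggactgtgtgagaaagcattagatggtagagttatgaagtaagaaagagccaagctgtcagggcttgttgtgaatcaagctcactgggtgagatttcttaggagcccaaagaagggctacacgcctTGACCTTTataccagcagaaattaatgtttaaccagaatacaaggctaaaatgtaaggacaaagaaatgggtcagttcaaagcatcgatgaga
Slc18a2: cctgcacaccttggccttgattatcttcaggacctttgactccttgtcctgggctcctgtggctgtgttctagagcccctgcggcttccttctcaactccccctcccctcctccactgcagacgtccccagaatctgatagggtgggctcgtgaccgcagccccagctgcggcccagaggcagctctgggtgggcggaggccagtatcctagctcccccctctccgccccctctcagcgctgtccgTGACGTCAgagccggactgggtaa

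The TGACGTCA word began 45 bases before the start in Th and 4 bases before the start in Slc18a2. Searched on both strands, it was found in no window of the other members and in 1.79% of all 32851 RefSeq windows. The AAAGGTCA word was found in the upstream window of Ddc alone, on the strand opposite to that of the gene and beginning 73 bases before the start. There it overlapped a TATAAA word, and 1.51% of all windows held AAAGGTCA. TATAAA (13.6% of windows) was also found in Gch1, CAGCTG (16.3%) in Slc18a2 alone, and GGGCGG (35.7%) in Th, Slc18a2, Slc6a3, Gch1, Pts, Qdpr and Maoa. No searched word was found in the window of Dbh or in the second window of Ddc. A match is a word in these letters and no measured binding site.

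The deposited values give the log2 ratio of 2 libraries in each table and no level. Reads per library could be recovered for 7 of the 9 genes from the tables themselves, in which they appear as multiples of a 1/49 part of a read. They were not recovered for Gch1 and Pts, whose ratios alone are given. Read totals of the libraries were not used here, and normalized reads are reads divided by a size factor relative to the geometric mean of the 20 libraries, which ranged from 0.782 to 1.52. Hprt gave the check of the labels. It had from 543.2 to 923.8 normalized reads in the 10 control libraries and from 20.88 to 143.2 in the 10 knockdown libraries, and the groups did not overlap. The log2 ratio of Hprt was −4.00 ± 0.888 (SD over 9 days), with no day above 0.

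Per kilobase of exon, the 7 genes with recovered reads spanned a wide range of levels. In the control line the median was 437 normalized reads per kb for Qdpr, 216 for Maoa, 31.0 for Ddc, 18.6 for Slc18a2, 8.76 for Th, 2.06 for Dbh and 0.304 for Slc6a3. Each gene of this order stood above the next in at least 9 of the 10 control libraries. In the knockdown line the medians were 401 for Qdpr, 282 for Maoa, 65.9 for Ddc, 25.3 for Slc18a2 and 6.46 for Th, and the 2 lowest genes changed places, with 0.967 for Slc6a3 and 0.457 for Dbh. Slc6a3 stood above Dbh in 7 of the 10 knockdown libraries, so these neighbors overlapped. Qdpr and Maoa, which many cell types express, were thus the most abundant, and the 4 genes that together mark DA neurons were lower by this measure.

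**Figure D1:**
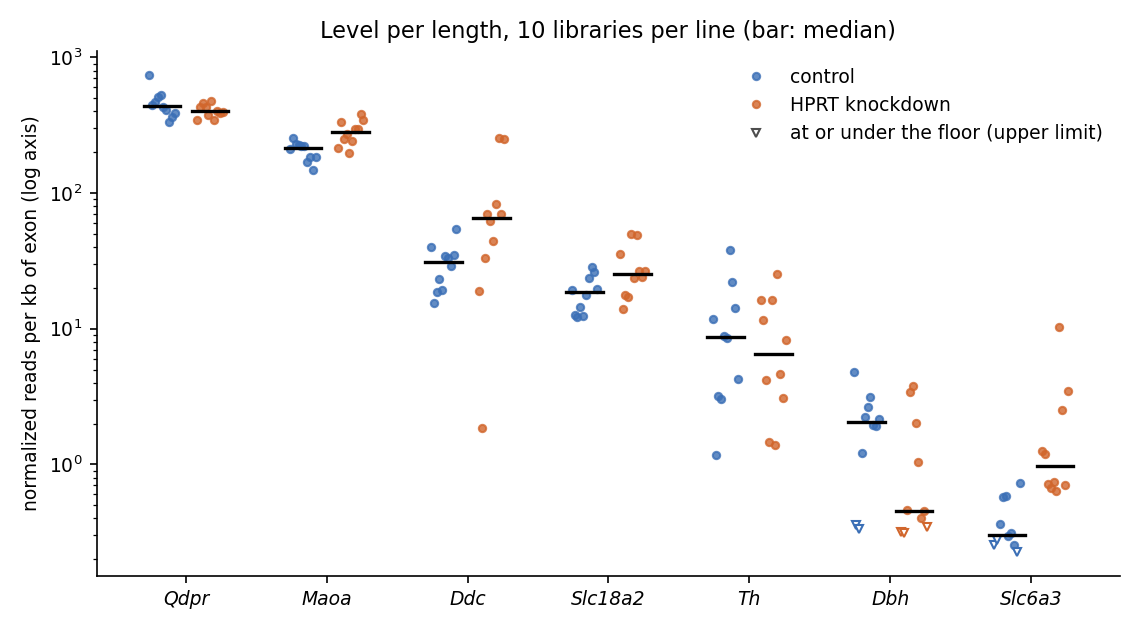
Level of 7 genes in normalized reads per kilobase of exon (log axis), in the 10 libraries of the control line (blue) and of the HPRT knockdown line (orange), with the median as a bar. Open triangles are upper limits of libraries at or under the floor. The control medians fall from 437 for Qdpr to 0.304 for Slc6a3, and Ddc has the widest spread in the knockdown line, with its lowest library at 1.85.

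Through the course, 3 of the 7 genes that passed the filter were higher in HPRT knockdown cells than in control cells (Pts, Maoa and Slc18a2), and 0 were lower. The test was limma on the per-day log2 ratios of 9 days, with Benjamini-Hochberg adjustment over all 13440 genes with 0.05 as the limit. The tables of day 6, which the study's methods treat as discrepant, were kept out of the tests. At an unadjusted p of 0.05 and by the exact sign-flip permutation test over days (two-sided) the counts of the 7 genes were the same. The lines differed in much of the transcriptome: 52.9% of the 13440 genes passed this test in either direction and 26.4% passed it as higher in the knockdown. The median of the 7 mean log2 ratios was 0.394, and the median over all genes tested was 0.00619. In bulk RNA of this kind, fewer cells of a type and less RNA per cell cannot be told apart.

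**Figure D2:**
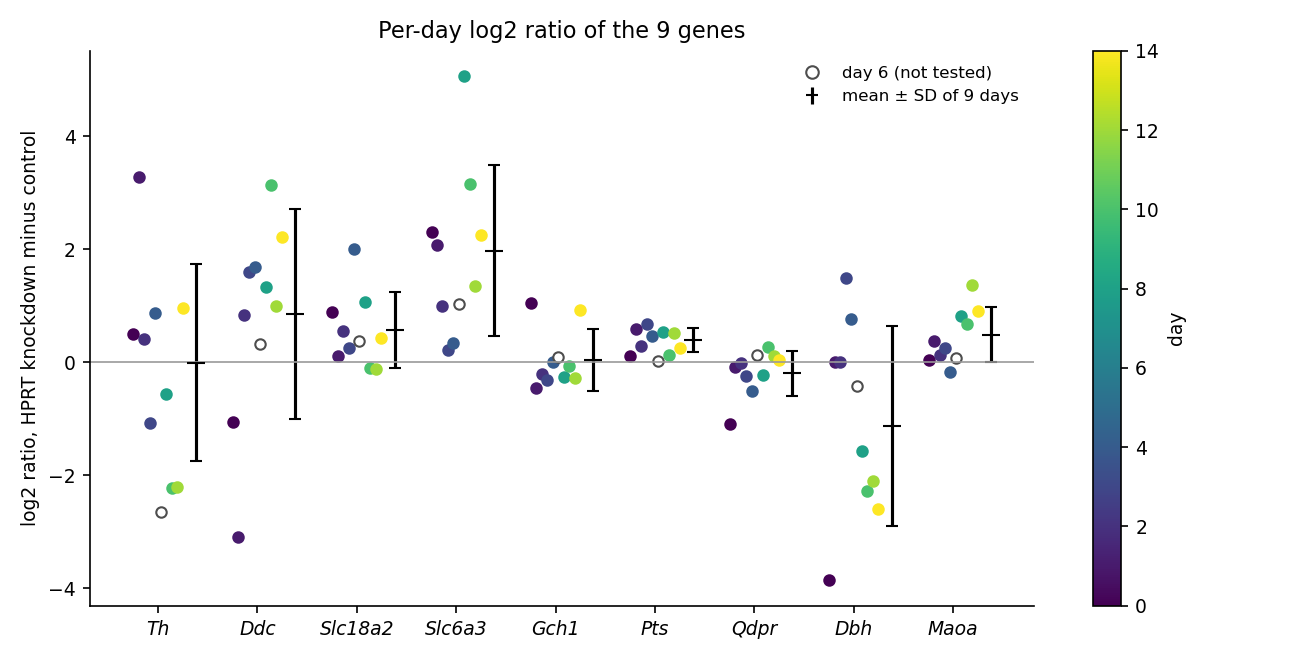
Log2 ratio of HPRT knockdown over control on each day for the 9 genes, colored by day, with day 6 as an open circle and the mean ± SD of the 9 days tested beside it. The points of Pts lie above 0 on every day tested, whereas those of Th range from −2.23 to 3.28 on both sides of 0.

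Tyrosine hydroxylase was low and unstable in both lines. Th had from 2.78 to 89.67 normalized reads in the control libraries (median 20.7) and from 3.28 to 59.6 in the knockdown libraries (median 15.3). Both lines had their highest value on day 8, with 83.47 reads in the control and 63.78 reads in the knockdown library. The lowest libraries held 3 reads each, on day 1 in the control and on days 3 and 6 in the knockdown, so the lines overlapped over most of their range.

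The mean ratio of Th near 0 joined days of opposite sign. Its log2 ratio was 3.28 on day 1, with an exact binomial 95% interval of the ratio of recovered reads from 1.63 to 5.69, and −2.23 on day 10, with an interval from −3.40 to −1.28. On day 12 the ratio was −2.21, with an interval from −3.74 to −0.992, and on the untested day 6 it was −2.66. These intervals exclude 0 and cover counting error only, which means that the days differed by more than the counting of reads allows, and what else moved with the days was not tested. Over the 9 days the ratio was higher on 5, with a mean of −0.0077 ± 1.74 (limma adjusted p = 0.991). No time trend of Th passed the test in either line, with slopes of 0.0853 log2 per day in the control (limma adjusted p = 0.456) and −0.0388 in the knockdown (adjusted p = 0.781).

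Aromatic L-amino acid decarboxylase reached its highest levels late in the knockdown line. Ddc had from 67.4 to 235.8 normalized reads in the control line (median 135) and from 8.05 to 1100 in the knockdown line (median 287). The lowest value was that of the knockdown library of day 1, with 7.80 reads against 72.7 in the control library of that day. The same library held 1900 normalized reads of Ttr, transthyretin, which yolk sac endoderm and choroid plexus make. The other knockdown libraries held at most 42.04 and the control libraries at most 12.55. No other endoderm list gene with recovered reads had its highest value there. Sox17 and Hnf4a had at most 0.843 normalized reads, Apob 4.13 and Gata4 33.0. In the control library of that day they had 16.7, at most 0.964, 6.49 and 61.1. Apoa1 had 5.16, against at most 0.964 in the control. The part of yolk sac or choroid plexus cells in the value of Ddc was not tested. The highest values of Ddc were those of the knockdown libraries of days 10 and 14, with 1100 and 1092 normalized reads. The control libraries of these days had 125.4 and 235.8.

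Ddc was lower in the knockdown on the first 2 days sampled, with log2 ratios of −1.06 and −3.09, and above 0 on each later day, up to 3.14 on day 10. The mean of 0.85 ± 1.86, with 7 of 9 days above 0, did not pass the test (limma adjusted p = 0.219, exact sign-flip permutation p = 0.215). Without day 1 the mean was 1.34 and passed (limma adjusted p = 0.0175). The slope of Ddc on day was 0.306 ± 0.0936 (SE) log2 per day in the knockdown line (adjusted p = 0.0603) and 0.0666 ± 0.0304 in the control line (adjusted p = 0.106), and the difference in slope, 0.234 ± 0.0924, did not pass either (adjusted p = 0.116). Slopes of a line were fitted to its tables of consecutive days and the difference to the tables of the same day, so the difference need not equal that of the printed slopes. From recovered reads the knockdown slope of 0.304 had an exact permutation p of 0.0127, not adjusted over genes.

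VMAT2 was higher in the knockdown line by a margin that depended on single days. Slc18a2 had from 46.3 to 109.2 normalized reads in the control line (median 70.7) and from 53.2 to 190.0 in the knockdown line (median 96.3), so the lines overlapped. The largest log2 ratios were those of days 4, 8 and 0, at 2.01, 1.06 and 0.88, whereas days 10 and 12 were at −0.0937 and −0.117. Slc18a2 had a mean ratio of 0.57 ± 0.676, above 0 on 7 of 9 days (limma adjusted p = 0.0404, exact sign-flip permutation p = 0.0195). The call was lost without any of days 0, 2, 3, 4, 8 and 14, with limma adjusted p between 0.0518 and 0.0886, and it was lost without the level filter (adjusted p = 0.0619) and without the pairing of days (adjusted p = 0.126). In the control line Slc18a2 rose by 0.0854 ± 0.0241 log2 per day (limma adjusted p = 0.0187), but through the tables of the other line this slope was 0.0630 with an adjusted p of 0.0502, and without day 12 it was 0.0804 with an adjusted p of 0.0591.

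The dopamine transporter was nearly silent in the control line. Slc6a3 had at most 3 reads in any control library, and the libraries of days 0, 1 and 12 could only be bounded. They were at or under the floor of every table that held them, at which a normalized count up to 1 in that table is entered as a log2 value of 0, and so in part was the library of day 10, for which other tables fix 1 read. The knockdown libraries held 6, 4, 2, 2, 2, 2, 38, 8, 2 and 11 reads in the order of days. The 10 control libraries held between 12 and 14.9 reads in all, given the limits of the 3 bounded libraries, against 77 in the 10 knockdown libraries, of which the library of day 8 gave 38.

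On 8 of the 10 days the knockdown library held more reads of Slc6a3 than the control library. Day 3 had 3 control and 2 knockdown reads and day 4 had 2 of each, so that the ratios of these days, 0.22 and 0.34, were above 0 through the size factors alone. The intervals of the ratio excluded 0 on days 8, 10 and 14, with lower bounds of 2.48, 0.399 and 0.326, and spanned 0 on days 2, 3, 4 and 6, where neither library had more than 3 reads. In the fit without the level filter, to which the low reads confine it, the mean log2 ratio was 1.97 ± 1.51 (limma adjusted p = 0.0098) beside 19.7% of 19040 genes called higher in that fit. Without day 8 it was 1.59 with an adjusted p of 0.00925. Slc6a3 was higher on 9 of 9 days, and so were 10.6% of these 19040 genes. No time trend of Slc6a3 passed the test in either line, and the difference in slope was 0.0922 ± 0.0990 (limma adjusted p = 0.6).

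**Figure D3:**
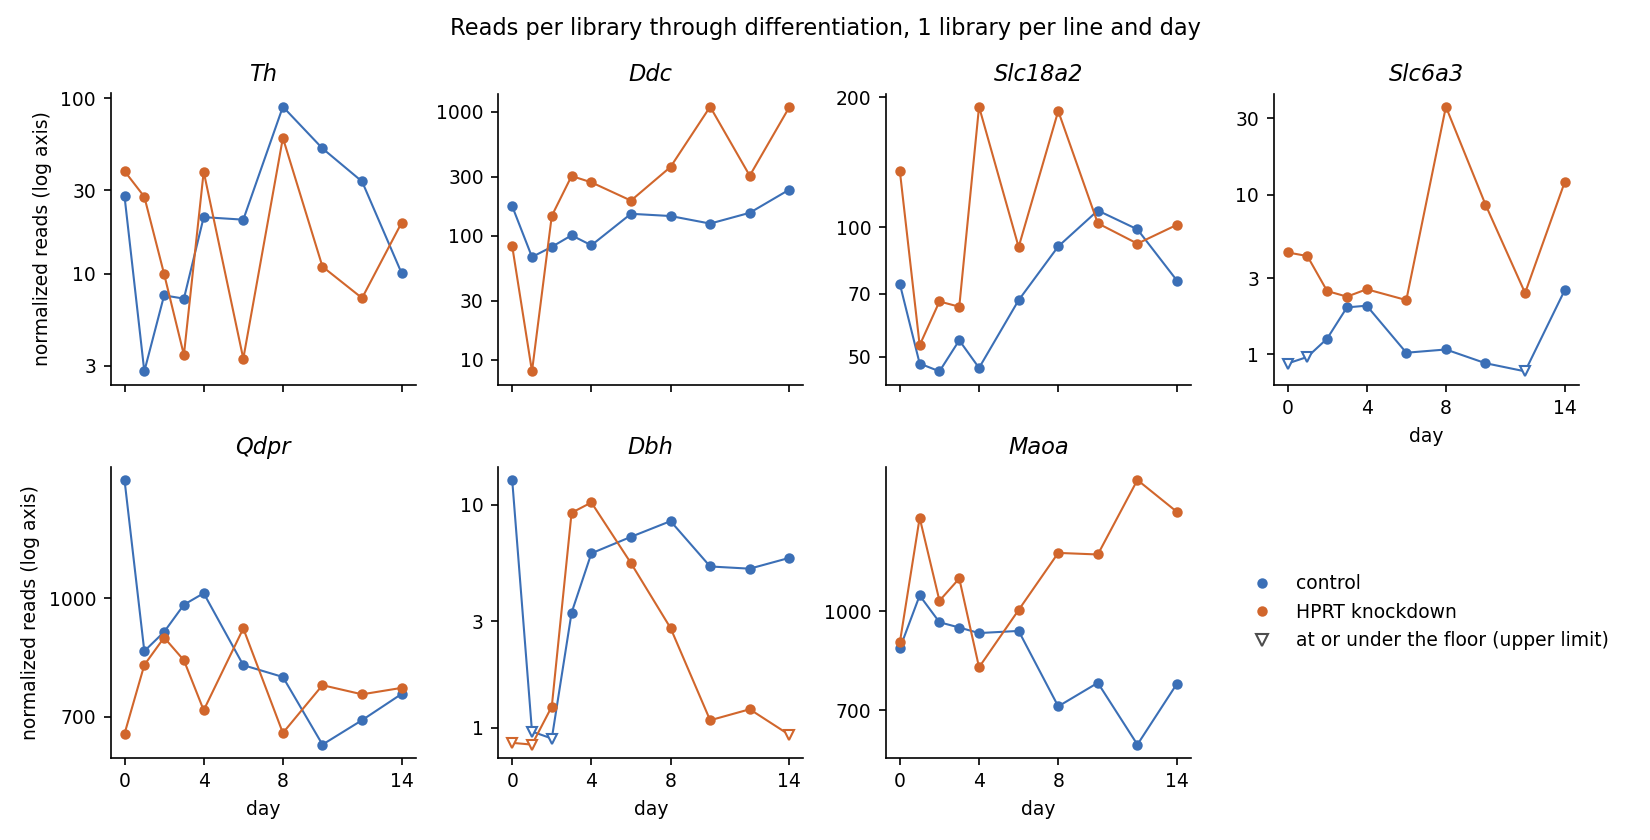
Normalized reads of 7 genes on each day (log axes that differ between panels) in the control line (blue) and the HPRT knockdown line (orange), 1 library per point. Open triangles are upper limits of libraries at or under the floor. Th peaks on day 8 in both lines, Slc6a3 has its highest value, 35.5, in the knockdown library of day 8, and Maoa of the 2 lines separates from day 8 on.

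Of the cofactor genes, Pts showed the most regular difference. Its log2 ratio lay between 0.108 on day 0 and 0.67 on day 3, with a median of 0.46, and was above 0 on each of the 9 days tested, which also held for 14.2% of the 13440 genes. Pts was higher in the knockdown line by 0.39 ± 0.206, a fold of 1.31 (limma adjusted p = 0.00228, exact sign-flip permutation p = 0.00391, the smallest that 9 days can give). The call was kept in every alternative that was run for Pts. Day 6, which was not tested, had a ratio of 0.0194.

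Gch1, the first enzyme of the cofactor pathway, cannot be followed reliably in these tables. Its log2 ratio was 1.04 on day 0, 0.92 on day 14 and between −0.455 and 0.091 on the other 8 days, with a mean of 0.042 ± 0.550 over the 9 days tested (limma adjusted p = 0.849). Summed around the 4 tables that join both lines on neighboring days, the steps of Gch1 should add to 0. They left −0.709 for days 0 and 1, 1.28 for days 8 and 10 and −0.322 for days 12 and 14. The largest remainder, 1.84, was that of days 3 and 4, whose control table was at odds with the others for nearly all genes. The value of Gch1 therefore depended on the table. Through the tables of a neighboring day its mean ratio was −0.268, and its slope in the control line was 0.288 log2 per day by the control tables (limma adjusted p = 0.00109) and 0.0505 by the tables of the other line (adjusted p = 0.365).

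Qdpr, which recycles the cofactor, had from 644.0 to 1429 normalized reads in the control line (median 836) and from 665.4 to 913.8 in the knockdown line (median 767). The highest library was that of the control on day 0, and the lines otherwise overlapped. The mean ratio was −0.195 ± 0.403, lower on 6 of 9 days, which did not pass the test (limma adjusted p = 0.225). In the control line Qdpr fell by 0.0514 log2 per day (SE 0.0156, limma adjusted p = 0.0257), and in the knockdown line the slope was −0.0070 (adjusted p = 0.734). The difference in slope by the tables of the same day, 0.0488 ± 0.0224, did not pass (adjusted p = 0.165), and the control slope lost its call without any of days 0, 10 and 12, with adjusted p between 0.0504 and 0.0672.

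Maoa, which oxidizes dopamine, noradrenaline and serotonin, separated between the lines in the second part of the course. It had from 618.1 to 1059 normalized reads in the control line (median 900) and from 817.2 to 1607 in the knockdown line (median 1177). From day 8 to day 14 the 4 control libraries lay between 618.1 and 772.6 and the 4 knockdown libraries between 1228 and 1607, with no overlap, whereas through day 6 the ranges of the lines overlapped. The log2 ratio was −0.177 on day 4 and reached 1.37 on day 12, and Maoa was on average 0.49 ± 0.492 higher, a fold of 1.40, with 8 of 9 days above 0 (limma adjusted p = 0.0223). The call was narrowly lost without day 8 or day 14, with adjusted p of 0.0523 and 0.0502. The split at day 8 was chosen after the values were seen. How many of the 13440 genes separate in the same way was not counted, so the gap is not shown to be particular to Maoa.

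The slope of Maoa also differed between the lines. In the control line Maoa fell by 0.0380 log2 per day (SE 0.0113, limma adjusted p = 0.0236; 0.0554 without day 1 and 0.0869 without day 12), and in the knockdown line its slope was 0.0372 ± 0.0183 (adjusted p = 0.191). By the tables of the same day the difference in slope was 0.0795 ± 0.02 (limma adjusted p = 0.0326), the only one among the 7 genes that passed, beside 14% of the 13440 genes. Recovered reads, which come from the same deposited values, gave a difference of 0.0791 with an exact permutation p of 0.00714, not adjusted over genes. Leaving out any of days 0, 2, 3, 10, 12 and 14 brought the adjusted p to between 0.0514 and 0.0989, with estimates from 0.0633 to 0.0940.

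In the control line 2 of the 7 genes rose with day (Gch1 and Slc18a2) and 2 fell (Qdpr and Maoa), beside 43.4% of all genes tested called in either direction. Through the tables of the other line Gch1 and Slc18a2 lost the call (limma adjusted p = 0.365 and 0.0502), and Qdpr and Maoa kept it (0.0156 and 0.019). In the knockdown line 0 of the 7 genes passed the limma test, beside 12.8% of all genes tested. At an unadjusted p of 0.05 this count was 1 (Ddc), and the exact permutation test of recovered reads, run for 5 of the 7, also gave Ddc alone. A trend called in the control line and not in the knockdown line is no difference between them, and that difference was called for Maoa only.

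Dopamine beta-hydroxylase, which would carry dopamine on to noradrenaline, had few reads in both lines. Dbh reached 12.9 normalized reads in the control line (median 5.53) and 10.2 in the knockdown line (median 1.23), and its lowest libraries in each line were at or under the floor. The 5 libraries at or under the floor were those of the control on days 1 and 2 and of the knockdown on days 0, 1 and 14. In the knockdown line the highest values were those of days 3 and 4, with 8 reads each, and from day 10 on no knockdown library held more than 1 read, whereas the control libraries of days 10, 12 and 14 held 6, 7 and 6.88.

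The log2 ratio of Dbh was above 0 on days 3 and 4, at 1.49 and 0.76, and below 0 on days 0, 8, 10, 12 and 14, with values between −3.86 and −1.57. The intervals of the ratio spanned 0 on each of days 3, 4, 6, 8, 10 and 12, since so few reads were counted. Its mean in the fit without the level filter was −1.13 ± 1.77, lower on 5 of 9 days, and did not pass the test (limma adjusted p = 0.139). Among listed noradrenergic and sympathetic genes, Phox2a, a transcription factor of noradrenergic neurons, was lower in the knockdown (log2 ratio −2.46 ± 1.83, limma adjusted p = 0.00398). Its part in the values of Dbh was not tested.

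Other genes of the pathway moved in both directions. The counts of each pathway list stand beside 52.9% of all 13440 genes called in either direction and 26.4% called higher. A count near these shares shows nothing particular to its list. Of 4 further tetrahydrobiopterin genes, all 4 were tested and 0 passed the limma test in either direction, at an unadjusted p of 0.05 as well. Pcbd1, a carbinolamine dehydratase, had a mean of −0.62 ± 1.16 (adjusted p = 0.154), and Gchfr, the feedback regulator of GTP cyclohydrolase I, had −0.25 ± 1.06 (adjusted p = 0.526). Spr, sepiapterin reductase, which makes the last step to tetrahydrobiopterin, had −0.17 ± 0.306 (adjusted p = 0.179). The list median was −0.213.

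Of 6 genes of breakdown and other catecholamine enzymes, 4 were tested, with 1 higher and 1 lower. Aldh1a1, which oxidizes the aldehyde that monoamine oxidase makes from dopamine, was higher by 1.5 ± 1.29 (limma adjusted p = 0.00864). Akr1b3, aldose reductase, was lower (−0.95 ± 0.837, adjusted p = 0.01). The list median was 0.017, and Maob, the other monoamine oxidase, had a mean of −0.029 ± 0.404 (adjusted p = 0.864). Aldh2, a mitochondrial aldehyde dehydrogenase, had 0.063 ± 0.222 (adjusted p = 0.542).

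Of 8 genes of storage, uptake and precursor transport, 5 were tested, with 1 higher, 3 lower and a median of −0.224. Slc7a8, an amino acid transporter light chain, was higher (1.15 ± 1.09, limma adjusted p = 0.0139). Slc29a4, a plasma membrane monoamine transporter (−0.43 ± 0.397, adjusted p = 0.0175), Slc7a5, which carries large neutral amino acids such as L-DOPA (−0.22 ± 0.217, adjusted p = 0.0398), and Slc16a10, an aromatic amino acid transporter (−0.54 ± 0.401, adjusted p = 0.00587), were lower. The noradrenaline transporter Slc6a2 was under the level filter.

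Of 11 listed receptor and signal genes found in the tables, 7 were tested, with 2 higher, 3 lower and a median of −0.143. One of the 2 is Drd1a, the D1 dopamine receptor, which had from 2.51 to 9.69 normalized reads in the control line (median 3.49) and a median of 22.4 in the knockdown line. It reached 16 normalized reads in 0 of 10 control and 6 of 10 knockdown libraries and so passed the filter through the line in which it is higher, for which reason its mean ratio of 2.46 ± 1.14 is a description and no test. Adcy5, an adenylyl cyclase, was higher (0.56 ± 0.406, adjusted p = 0.00533). Park7 was lower (−0.32 ± 0.168, adjusted p = 0.00376). Also lower were Sncg, gamma-synuclein (−1.69 ± 1.6), and Ppp1r1b, which encodes DARPP-32 (−0.81 ± 0.983). Sncg and Ppp1r1b lay near the limit of the filter, with 16 normalized reads or more in 7 and 6 of 10 control libraries and in 3 and 3 of 10 knockdown libraries. Their medians were 36.1 and 21.6 in the control line and 10.8 and 12.8 in the knockdown line. They too passed the filter through the line in which they are higher, so their mean ratios are descriptions and no test. Drd2, the D2 receptor, fell under the filter, with a median of 16.4 normalized reads in the control and 4.65 in the knockdown line. It reached 16 normalized reads in 5 of 10 control and 0 of 10 knockdown libraries. Its mean ratio of −1.25 ± 1.23, lower on 8 of 9 days, is likewise a description and no test.

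**Figure D4:**
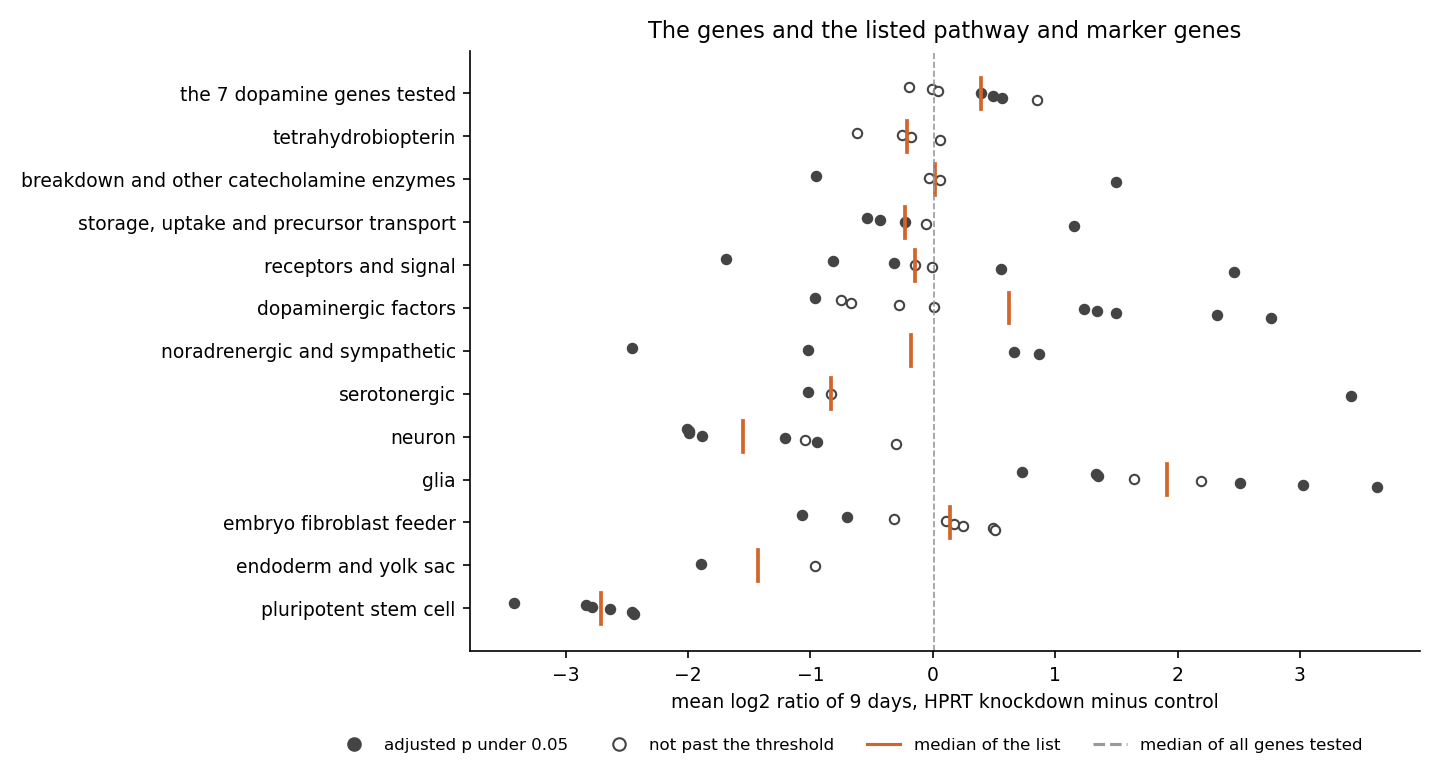
Mean log2 ratio over 9 days (HPRT knockdown minus control) of each tested gene in the listed groups, filled where the limma adjusted p was under 0.05 and open otherwise, with the median of each list as an orange bar and the median of all 13440 genes as a dashed line. The 7 dopamine genes lie between −0.195 and 0.85, a narrower range than that of the glial genes, whose median was 1.91.

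Markers of the cells that these cultures could hold moved with the lines as well. The counts below stand beside 52.9% of all 13440 genes called in either direction and 26.4% called higher. A count near these shares shows nothing particular to its list. Of 11 dopaminergic factors, 10 were tested, with 5 higher in the knockdown (Foxa1, Lmx1a, Aldh1a1, Msx1 and Foxa2), 1 lower (En2) and a median of 0.622. Of the neuron list, 8 of 10 genes were tested, and 6 were lower (median −1.55), and of 8 glial genes 6 were higher (median 1.91). For the 5 neuronal genes with recovered reads the summed level ranged from 3808 to 15195 normalized reads in the control and from 1911 to 5601 in the knockdown libraries, and for 3 glial genes from 708 to 5975 and from 3687 to 14030. All 6 pluripotency genes were lower (median −2.71), and of 8 feeder fibroblast genes 2 were lower (median 0.140). Of 3 serotonergic genes tested, 1 was higher and 1 lower, and of 4 noradrenergic genes 2 were higher and 2 lower. Of 2 endoderm genes tested 1 was lower, Sox17. It had 16 normalized reads or more in 9 of 10 control and 4 of 10 knockdown libraries. Since Sox17 passed the filter through the line in which it is higher, its mean ratio of −1.89 ± 2.4 is a description and no test. In the fit without the filter, 2 further endoderm genes, Ttr and Apoa1, were called higher in the knockdown (2.98 ± 3.29 and 1.66 ± 1.23). Ttr had 16 normalized reads or more in 0 of 10 control and 4 of 10 knockdown libraries, with 1900 in the knockdown library of day 1. Apoa1 had at most 9.42 normalized reads in any library. The mean ratios of Ttr and Apoa1 are thus descriptions and no test. Of the other endoderm genes under the filter, Afp and Apob had means of 0.777 and 0.67, and Hnf4a had −0.0155. In that fit 19.7% of 19040 genes were called higher. The part of these markers in the values of Th, Ddc, Slc18a2, Slc6a3 and the others was not tested.

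Genes whose per-day log2 ratios were most like those of a member over the 10 days were found by Pearson's r and are given as a description, with no test. They were Dtx3 for Th (r = 0.926), Dlg1 for Ddc (r = 0.944), Vtn for Slc18a2 (r = 0.937), Cmklr1 for Gch1 (r = 0.939), Camk1 for Pts (r = 0.930), Ndufs6 for Qdpr (r = 0.974) and D230037D09Rik for Maoa (r = 0.945). Each is the closest of 13440 genes, which favors a high r, and the points share their libraries. Pcbd2, another gene of tetrahydrobiopterin metabolism, was the second closest to Pts (r = 0.925), although its mean ratio of 0.063 ± 0.311 did not pass the test (limma adjusted p = 0.637).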

How the data were processed

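RNA-seq libraries were made with a kit that does not keep strand. Per the labels and the study's methods, reads were aligned by ELAND in CASAVA 1.8.2 to mm9, and gene counts were normalized by the authors with DESeq in Avadis NGS. The authors deposited 28 tables of 2 libraries each as log2 values centred on the mean of the pair: 10 tables pair the lines within a day and the others consecutive days of a line. Tables were normalized separately, so levels set across tables join separate normalizations. Normalized counts up to 1 were entered as 0 on the log2 scale, which understates ratios of low genes. The control table of days 3 and 4 was at odds with the others: the loop of tables over these days closed within 1e-05 for 0.0595% of 13440 genes, against 91.4% to 93.1% in the other 8 loops, and the control trends use it.

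Level was read from the rounding step of the single-precision values. Reads were recovered where values fitted multiples of 1/49 read in the other 27 tables; the scale of Ddc and Slc18a2, which have 2 and 1 libraries of whole reads, rests on how many deposited values the reads give exactly (23 and 24). On simulated data the filter placed 99.2% of 3000 genes rightly, and reads were right for 60 of 60 genes. The genes tried for reads were of middle levels, above that of Slc6a3, so this check does not cover Slc6a3. They were simulated with whole reads in many libraries, so it does not cover the scale of Ddc and Slc18a2 either. The reads of Slc6a3 gave 14 of the deposited values exactly.

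Groups came from the labels. Per-day ratios (knockdown minus control) and slopes on day were fitted with limma 3.58.1 (R 4.3.3) across all genes past the filter, at an adjusted p of 0.05. Slopes per line used steps of consecutive days added up. Exact permutation tests over days and figures used Python 3.11.15 with scipy 1.17.1; for log2 of recovered reads the pseudocount was 1, and intervals of ratios are exact binomial (95%) on reads rounded to whole numbers, which covers counting error only. The day served as the pair: deviations of same-day libraries correlated across genes with r of 0.133 to 0.43 on 8 days and -0.0192 on day 0, and a library's own day was its best match on 4 of 9 days. Promoters came from RefSeq, words being searched on both strands. Libraries were indexed and shared lanes per the study's methods; the lanes and dates of single libraries are not given in the sources used here, and batches were not examined. All 9 members are named, and pathway genes where they passed the test or had the 3 largest ratios of their list. The symbols Akr1a1, Drd1 and Map2 were not found in the tables, and some other genes of the lists are not reported here. Members and lists were chosen with earlier results of these data known.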

Additional observations from a re-analysis of the deposited data

Results flagged for a closer look

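The difference in time trend of Maoa between the lines, 0.0795 log2 per day higher in the HPRT knockdown than in the control line (limma adjusted p = 0.0326), was singled out because the difference itself passed its test. It rests on 9 days of 1 library per line. Its call was lost without any of several single days, as given above. The same test was passed by 14% of the 13440 genes.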

How the results depend on the processing

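Of 568 values of the members under the alternatives, 515 kept their direction and side of the threshold, 27 lost a call, 8 gained one and 18 turned in direction, none of them called. Through the tables of a neighboring day the mean ratio of Th was 0.053 and that of Gch1 −0.268. On log2(day + 1) the difference in slope was −0.056 for Gch1 and 0.0096 for Pts, and that of Maoa, 0.273, lost its call (adjusted p = 0.0753). Leaving out 1 day at a time, the mean ratio of Th ranged from −0.4191 to 0.2706 and that of Gch1 from −0.08309 to 0.1043. Slopes ranged from −0.0797 to 0.001853 for Th and from −0.0008035 to 0.04596 for Slc18a2 in the knockdown line, and from −0.04904 to 0.04098 for Slc6a3 in the control line. The difference in slope ranged from −0.0375 to 0.05583 for Gch1 and from −0.01763 to 0.001902 for Pts. Genes called for a trend were 5828 in the control line (3826 on log2(day + 1)), 1716 in the knockdown line (136 on log2(day + 1), 208 to 2905 without 1 day) and 1888 for the difference (1057 with day 6 kept, 603 to 1656 without 1 day). These counts moved by over 1.5 times without day 0, 2, 10, 12 or 14 in the knockdown line and without day 10, 12 or 14 for the difference. Ddc passed in the course only without day 1. Gch1 rose in the knockdown line through the tables of the other line alone (0.301, limma adjusted p = 0.00658). Dbh had a called difference in slope without day 0 (−0.276, adjusted p = 0.0432). Without the pairing of days, Slc18a2 lost its call (adjusted p = 0.126), and no other call of the course changed among the members. Depth limits Slc6a3 and Dbh, whose ratios on most days rest on under 10 reads per library; what moves the other values between days was not tested.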
